A study of Mus musculus with 46 samples.

Results

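The genes described here encode plasma proteins that the liver makes for blood clotting, for dissolving clots and for complement. They were taken by symbol from the deposited expression table, and all 35 were present among its 21671 genes. Of these, 20 belong to coagulation and fibrinolysis and 15 to complement. All 35 passed the filter on low values, which left 14566 genes for testing.

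Clotting factors circulate as inactive precursors and activate each other in a chain that ends with thrombin, the enzyme that turns fibrinogen into fibrin. Inhibitors such as antithrombin hold this chain in check, and plasmin, made from plasminogen, dissolves fibrin. Complement is a second chain of plasma proteases, started by recognition proteins such as the mannose-binding lectins, carried by convertases that split C3, and ended by the terminal components that build a pore in target membranes. Hepatocytes are the main source of most proteins in both chains.

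RNA from tissue of FVB mice was sequenced in 46 libraries. Myc-off tumours (8 libraries from 3 animal IDs) carried tet-Myc and LAPtTA, the liver-specific transactivator that drives the transgene from before birth, and came from mice fed doxycycline for 16 hours to switch it off. MycVD tumours (11 libraries from 10 IDs) carried tet-MycVD, the V394D form of Myc, with LAPtTA, and were taken with the transgene on. Myc tumours (16 libraries from 7 IDs) carried tet-Myc with LAPtTA, likewise with the transgene on, and control liver (11 libraries from 11 IDs) was labelled normal liver. The labels do not say whether control mice carried a transgene, and they give no age. Xist set against the Y-linked gene Ddx3y put 2 Myc-off, 5 MycVD, 4 Myc and 5 control IDs as female and 1, 5, 3 and 6 as male.

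Levels are eRPKM, exonic reads per kilobase scaled to sequencing depth, averaged over tumours that share an ID. Recovered depth had a median of 7.14 M reads in Myc-off libraries (3.25 to 10.4), 7.81 in MycVD libraries (6.18 to 10.6), 9.65 in Myc libraries (7.27 to 12.6) and 7.32 in control libraries (5.63 to 8.95). The level of the gene Myc was 4.16 to 9.11 eRPKM in Myc-off IDs, 2.67 to 9.86 in MycVD IDs, 6.27 to 10.9 in Myc IDs and 1.46 to 18.2 in control IDs, and these ranges overlap. Whether that level includes transgene reads is not known. Gapdh stayed below 30 eRPKM in 8 libraries (2 MycVD, 5 Myc and 1 control), which set them apart, and leaving these out moved no count of called members below by more than 2. A limit near 2000 reads per kb was inferred from the highest values, which would compress fold changes of abundant genes. Abundant genes also varied between tumours of an ID. In the 3 tumours of Myc-off ID150584, Fgb was at 302, 189 and 102 eRPKM at depths of 3.25, 7.32 and 10.4 M reads (981, 1384 and 1062 reads per kb), while F5 was at 35.2, 32.0 and 35.3 eRPKM. The Fgb values were below the assumed limit, and the cause of their spread was not tested. In control liver 7 of the 20 coagulation members and 5 of the 15 complement members had a median over 1000 reads per kb.

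All members were lower in Myc tumours than in control liver. In limma with Benjamini-Hochberg adjustment over all genes tested, all 20 coagulation members and all 15 complement members fell, where 29.7% of all genes tested were lower and 50.4% were higher. The median log2 fold change was -1.19 over the coagulation members and -2.08 over the complement members, against 0.28 over all genes tested. The values of Myc IDs and control IDs did not overlap for 17 coagulation and 14 complement members, and those that overlapped were Fgb, Serpinc1, Cpb2 and C3. Of all genes tested, 18.7% were lower and 35.1% higher without overlap. In bulk tissue, fewer hepatocytes and less RNA per hepatocyte cannot be told apart.

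**Figure D1:**
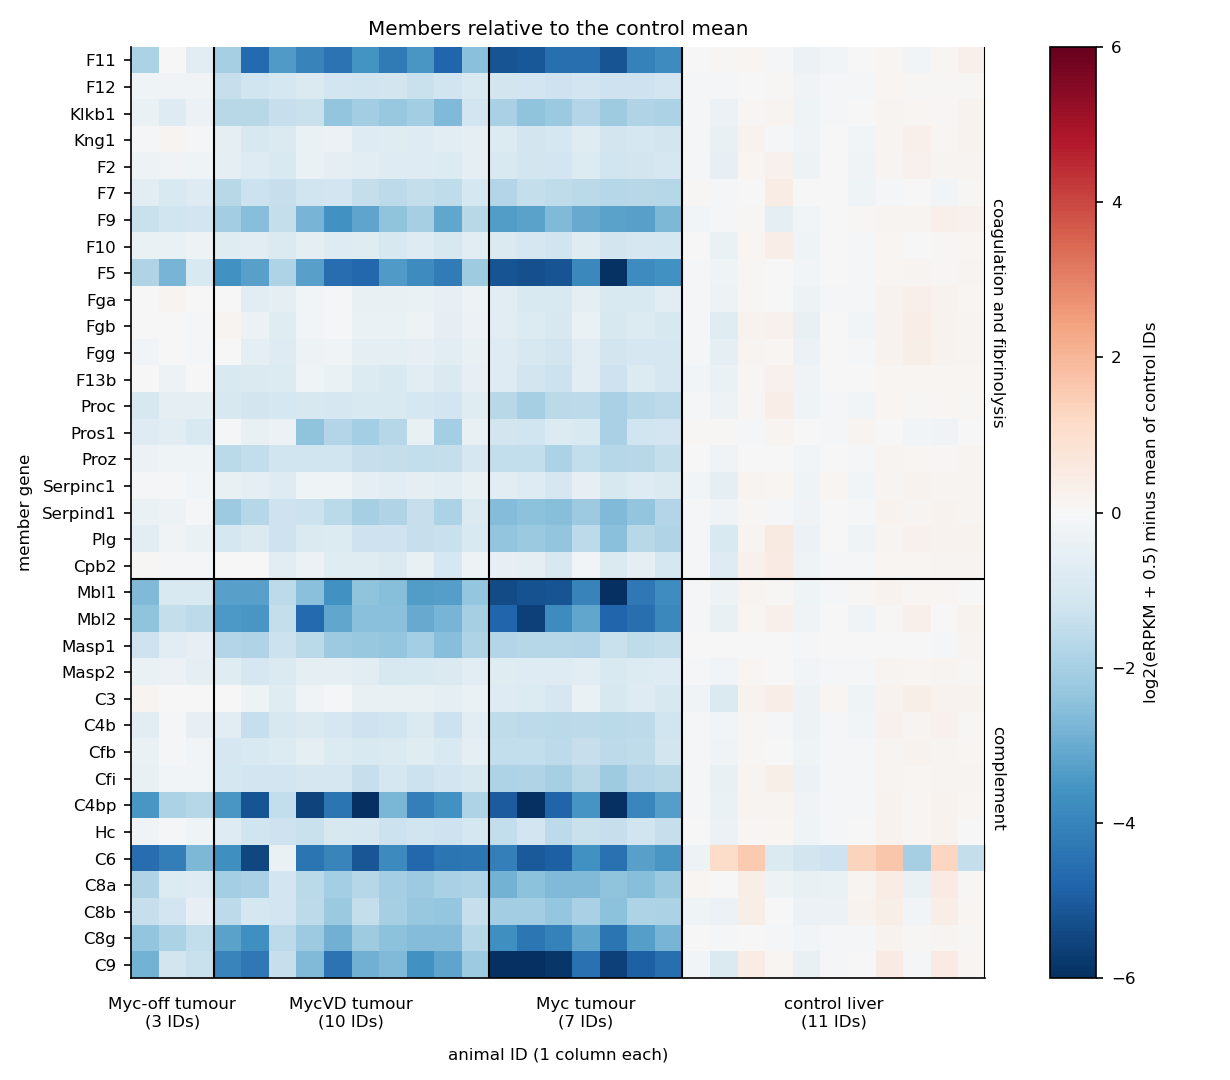
Each row is a member gene and each column an animal ID, with groups from left to right Myc-off, MycVD, Myc and control. Colour gives log2(eRPKM + 0.5) minus the mean of the control IDs. F11, F9, F5, Mbl1, Mbl2, C4bp, C6, C8g and C9 carry the darkest blue in Myc tumours, while the fibrinogen rows stay pale in every tumour group.

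The fall was very uneven along the clotting chain. The contact pathway, which starts clotting on negatively charged surfaces, held both large and small changes. F11, the zymogen factor XI, ran from 1.58 to 4.89 eRPKM in Myc IDs (median 2.73), against 58.3 to 93.0 in control IDs (median 76.1). No Myc ID came near the lowest control, and the log2 fold change was -4.62 ± 0.30 (SE; adjusted p = 4.4e-15). Klkb1, plasma prekallikrein, ran from 15.8 to 25.4 eRPKM in Myc IDs, against 68.4 to 99.0 in control IDs, a log2 fold change of -2.02 ± 0.16. F12, factor XII, fell by 1.19 on the log2 scale and Kng1, high molecular weight kininogen, by 0.99. F11 stood a median of 2.90 log2 units below Klkb1 in Myc IDs and 0.17 below it in control IDs. Kng1 has a near-identical neighbour, Kng2, and how shared reads were divided is not known.

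Among the vitamin K-dependent enzymes F9, factor IX, changed most. It ran from 9.37 to 15.4 eRPKM in Myc IDs (median 10.3), against 67.8 to 121 in control IDs (median 104), with a log2 fold change of -3.06 ± 0.21 (adjusted p = 1.39e-14). F7, which starts clotting with tissue factor, fell by 1.63 on the log2 scale, F2, prothrombin, by 1.05, and F10, factor X, by 1.01. F5, the cofactor that speeds prothrombin activation, ran from 1.54 to 9.47 eRPKM in Myc IDs (median 2.92), against 103 to 138 in control IDs (median 122). Its log2 fold change of -4.68 ± 0.34 was the largest of the coagulation members (adjusted p = 6.81e-14). Across both systems 14 of the 35 members changed by at least 4-fold, and the share of all genes tested with such a change was not counted.

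The fibrin group changed little by comparison. Fgb, the beta chain of fibrinogen, ran from 104 to 155 eRPKM in Myc IDs (median 115), against 124 to 266 in control IDs (median 228). The groups overlap, and the log2 fold change was -0.79 ± 0.12 (adjusted p = 8.95e-07). Fga fell by 0.80, Fgg by 0.94 and F13b, the carrier subunit of factor XIII, by 0.98 on the log2 scale. The median Fgb minus Fga difference was 0.30 log2 units in Myc IDs and 0.32 in control IDs, and the median Fgg minus Fga difference was -0.07 in Myc IDs and 0.08 in control IDs. The ranges of both differences overlapped between the groups, and all 3 genes had a control median over 1000 reads per kb.

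Inhibitors fell together with the enzymes they restrain. Serpind1, heparin cofactor II, ran from 27.1 to 50.2 eRPKM in Myc IDs, against 148 to 197 in control IDs, a log2 fold change of -2.36 ± 0.14 (adjusted p = 2.88e-16). Proc, protein C, fell by 1.73, Proz, protein Z, by 1.59, Pros1, the protein S cofactor of protein C, by 1.19 and Serpinc1, antithrombin, by 0.80 on the log2 scale. Of the fibrinolysis pair, Plg, plasminogen, ran from 18.8 to 36.8 eRPKM in Myc IDs, against 58.0 to 161 in control IDs, and fell by 2.07 on the log2 scale. Cpb2, a carboxypeptidase that protects fibrin from plasmin, had the smallest change of all 35 members at -0.67 ± 0.15 (adjusted p = 0.00015).

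In complement the lectins, C4bp and C9 fell most, and members of the same step differed widely. Mbl1, a mannose-binding lectin that starts the lectin pathway, ran from 1.63 to 9.72 eRPKM in Myc IDs (median 3.20), against 111 to 159 in control IDs (median 140). Its log2 fold change was -4.83 ± 0.28 (adjusted p = 3.24e-16), and that of the related lectin Mbl2 was -4.34 ± 0.31. The proteases that the lectins carry changed less, with Masp1 at -1.61 ± 0.12 and Masp2 at -0.78 ± 0.06. C9, which forms the ring of the membrane pore, ran from 0.893 to 4.79 eRPKM in Myc IDs (median 1.92), against 64.7 to 165 in control IDs (median 117). At -5.40 ± 0.34 it had the largest change of the 35 members (adjusted p = 3.46e-15), and no Myc ID was near a control value.

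The other terminal components lay in between. C8g fell by 3.66, C8a by 2.54 and C8b by 2.08 on the log2 scale, although their products form a single complex. Hc, which encodes C5, ran from 23.8 to 32.0 eRPKM in Myc IDs, against 56.1 to 83.4 in control IDs, and fell by 1.35 on the log2 scale. FVB/N mice are known to carry a loss-of-function allele of Hc, so its transcript level does not stand for circulating C5. The convertase genes fell less: C4b by 1.52, Cfb, factor B, by 1.44 and C3 by 0.82 on the log2 scale. C4b has a near-identical copy, C4a, and its level is uncertain for that reason. Of the regulators, C4bp, which binds C4b and speeds its breakdown, ran from 0.521 to 12.4 eRPKM in Myc IDs, against 96.0 to 148 in control IDs, a log2 fold change of -4.87 ± 0.58 (adjusted p = 5.16e-09). Cfi, the protease factor I, fell by 1.84 on the log2 scale.

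**Figure D2:**
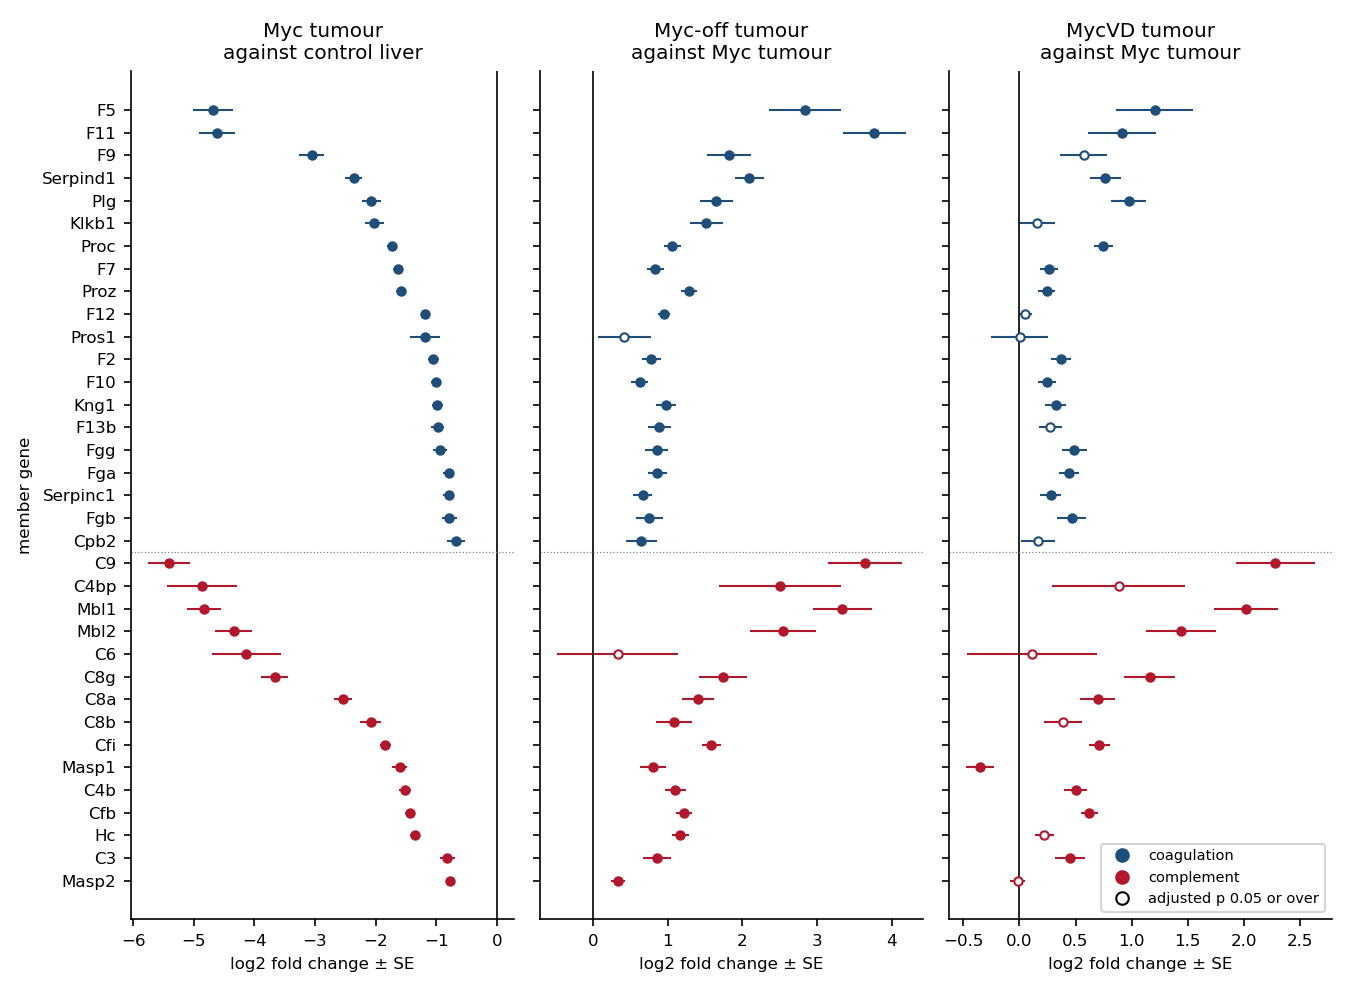
Points are log2 fold changes of log2(eRPKM + 0.5) with bars of 1 SE, for each member in 3 comparisons, coagulation in blue above and complement in red below. Open points did not pass an adjusted p of 0.05. From Myc tumours against control liver to Myc-off against Myc tumours most members change side, with F11, C9 and Mbl1 farthest out in the second, while C6 and Pros1 are drawn open there.

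The bases before the gene start are shown for Fga and Fgb, which changed little in Myc tumours against control liver, and for F11 and C9, which changed by over 4 log2 units. All 4 were chosen after their values were seen and for holding a motif match. They are the 250 bases before the RefSeq start in build GRCm38.p6, written 5′ to 3′ on the gene's strand, at chr3:83025903-83026152 (plus strand), chr3:83049864-83050113 (minus), chr8:45262032-45262281 (minus) and chr15:6445096-6445345 (plus) in that order. Capitals mark matches, on either strand, to the C/EBP motif TTGCNNAA in all 4 and to the STAT motif TTCNNNGAA in Fga and Fgb.
Fga: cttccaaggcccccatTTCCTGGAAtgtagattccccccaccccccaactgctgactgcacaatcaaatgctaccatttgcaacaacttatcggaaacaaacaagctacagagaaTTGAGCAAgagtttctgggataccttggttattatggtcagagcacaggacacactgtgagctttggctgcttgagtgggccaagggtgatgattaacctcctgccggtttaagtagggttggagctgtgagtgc
Fgb: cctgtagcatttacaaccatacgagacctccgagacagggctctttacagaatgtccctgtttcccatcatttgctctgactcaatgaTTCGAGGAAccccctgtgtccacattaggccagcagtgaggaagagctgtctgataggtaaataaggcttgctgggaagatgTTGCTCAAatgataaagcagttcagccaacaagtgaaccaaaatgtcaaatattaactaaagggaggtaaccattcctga
F11: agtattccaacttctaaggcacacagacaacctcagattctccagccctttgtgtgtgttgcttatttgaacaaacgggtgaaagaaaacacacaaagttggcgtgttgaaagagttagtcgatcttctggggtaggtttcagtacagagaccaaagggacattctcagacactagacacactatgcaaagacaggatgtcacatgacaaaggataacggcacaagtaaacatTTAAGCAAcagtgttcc
C9: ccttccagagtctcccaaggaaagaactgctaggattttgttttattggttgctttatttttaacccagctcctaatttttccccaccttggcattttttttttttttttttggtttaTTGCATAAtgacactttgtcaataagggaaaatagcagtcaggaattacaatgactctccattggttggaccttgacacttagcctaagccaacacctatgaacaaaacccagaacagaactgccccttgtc

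The C/EBP match began 135 bases before the start in Fga, 80 in Fgb, 17 in F11 and 132 in C9. RefSeq windows from 250 bases before to 50 after the start were matched for 28 of the 35 members and for 27025 genes in all. Not in that table were Kng1, Plg, Proc, Masp1, C4b, Cfb and Cfi. The C/EBP motif was in 9 of the 28 member windows (32.1%), against 12.2% of all genes. These 9 were F11, F9, Klkb1, Fga, Fgb, Serpinc1, Cpb2, C3 and C9, 7 of them coagulation genes and 2 complement genes. F5, Mbl1, Mbl2, C4bp and C6, which also changed by over 4 log2 units, had no match to it. The STAT motif was in 6 (21.4%), against 9.55% of all genes. The HNF4 motif CAAAGTCCA and the E-box CACGTG, the site Myc is known to bind, were in 0 of the 28, against 0.555% and 8.09% of all genes. A match describes these letters only.

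Most members were higher in Myc-off tumours, after 16 hours of doxycycline, than in Myc tumours of other mice. Only Myc-off mice were fed doxycycline, so its own effect and that of switching Myc off cannot be told apart. In Myc-off tumours 19 of the 20 coagulation and 14 of the 15 complement members were higher than in Myc tumours and none was lower, where 22.8% of all genes tested were higher and 28% were lower. The median log2 fold change was 0.92 over the coagulation members and 1.21 over the complement members, and 0.00 over all genes tested. The members not called were Pros1 (0.42 ± 0.36, adjusted p = 0.348) and C6 (0.33 ± 0.81, adjusted p = 0.769). Values of Myc-off and Myc IDs did not overlap for 19 coagulation and 13 complement members, all higher in Myc-off IDs, where 19.6% of all genes tested were higher and 25.9% lower without overlap.

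F11, C9 and Mbl1 had the largest rises. F11 was at 19.9, 72.1 and 47.5 eRPKM in Myc-off ID150584, ID151964 and ID153344, against 1.58 to 4.89 in Myc IDs. Its log2 fold change was 3.77 ± 0.42 (adjusted p = 1.06e-08), and 1 of the 3 IDs was within the control range. C9 was at 15.8, 54.6 and 46.3 eRPKM in the same IDs, against 0.893 to 4.79 in Myc IDs, a log2 fold change of 3.64 ± 0.49 (adjusted p = 2.81e-07). Mbl1 was at 21.4, 71.3 and 72.2 eRPKM, against 1.63 to 9.72 in Myc IDs, a log2 fold change of 3.34 ± 0.40. In all these genes ID150584 had the lowest of the 3 values. F5 had another order, at 34.2, 17.0 and 65.1 eRPKM, against 1.54 to 9.47 in Myc IDs, with a log2 fold change of 2.84 ± 0.48 (adjusted p = 1.09e-05).

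Mbl2 rose by 2.54 ± 0.44 and C4bp by 2.50 ± 0.82 on the log2 scale. C4bp was at 10.8, 34.3 and 39.2 eRPKM in Myc-off IDs, against 0.521 to 12.4 in Myc IDs. Its groups overlapped, and it was no longer called when ID151964 (adjusted p = 0.0601) or ID153344 (adjusted p = 0.0686) was left out. Serpind1 rose by 2.09 ± 0.19, F9 by 1.82 ± 0.29, C8g by 1.74 ± 0.32, Plg by 1.65 ± 0.22, Cfi by 1.58 ± 0.13 and Klkb1 by 1.51 ± 0.22. The remaining rises were smaller, down to 0.33 ± 0.09 for Masp2. The fibrinogen chains rose by 0.76 ± 0.18 (Fgb), 0.85 ± 0.16 (Fgg) and 0.86 ± 0.12 (Fga). With depth as a term in the fit Fgb (0.33, adjusted p = 0.0854), Cpb2 (0.47, adjusted p = 0.128) and Masp2 (0.10, adjusted p = 0.303) were not called.

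**Figure D3:**
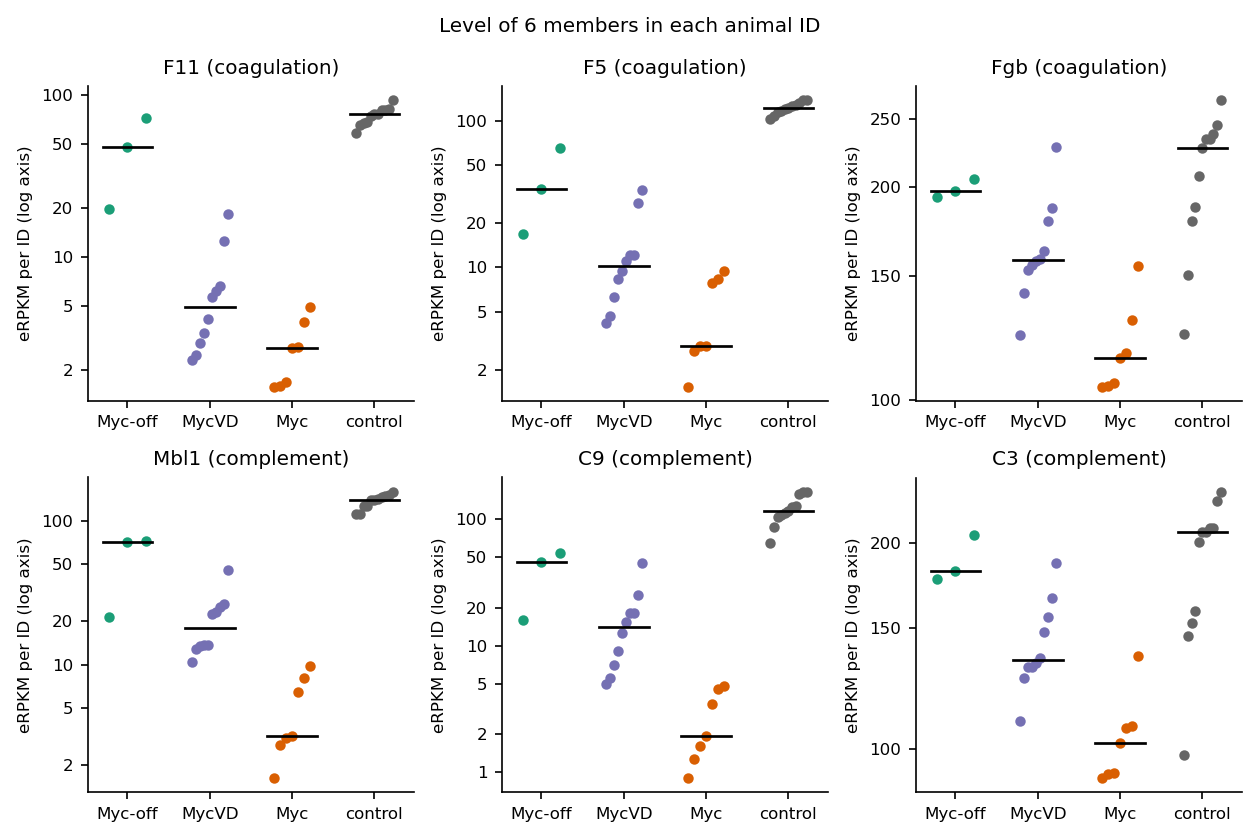
Each point is the eRPKM of an animal ID on a log axis, with groups from left to right Myc-off, MycVD, Myc and control, and a line at the group median. F11, F5, Mbl1 and C9 separate Myc tumours from control liver with Myc-off tumours between or near control, while Fgb and C3 span less than 3-fold over all groups.

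After 16 hours coagulation members lay nearer to control liver than complement members did. Against control liver 8 coagulation and 11 complement members were lower in Myc-off tumours in limma and 0 were higher (the highest value was 0.06, for Fga), where 20.9% of all genes tested were lower and 37.3% were higher. The median log2 fold change was -0.28 over the coagulation members and -1.0 over the complement members, against 0.17 over all genes tested. With quantile normalisation 4 coagulation members were lower and 2 higher (Fga and Kng1), with a median of -0.08, where 29.8% of all genes were lower and 28% higher. With median-ratio scaling 13 were lower, with a median of -0.47, where 30% of all genes were lower and 29% higher. Without Myc-off ID150584, 7 complement members were lower, where 17.9% of all genes were lower. Mbl1 (adjusted p = 0.0596), C4bp (adjusted p = 0.101) and C9 (adjusted p = 0.0523) were among the members not called in that fit. This comparison, the previous one and that of Myc tumours with control liver share samples.

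The fibrin group was close to control liver: Fga was at 165, 189 and 169 eRPKM in Myc-off IDs, against 133 to 204 in control IDs, a log2 fold change of 0.06 ± 0.12 (adjusted p = 0.656). For Fgb it was -0.03 ± 0.17 (adjusted p = 0.871), for Fgg -0.09 ± 0.15 (adjusted p = 0.625), for F13b -0.09 ± 0.14 (adjusted p = 0.601) and for C3 0.04 ± 0.18 (adjusted p = 0.844). A p over the threshold does not show equal levels, and Fga, Fgb, Fgg and C3 are among the members over 1000 reads per kb. The members still called lower with the largest differences were C6 at -3.81 ± 0.77, C4bp at -2.36 ± 0.78, C8g at -1.92 ± 0.30, F5 at -1.84 ± 0.45, Mbl2 at -1.80 ± 0.41, C9 at -1.76 ± 0.46 and Mbl1 at -1.49 ± 0.38. F11 was at -0.85 ± 0.40 and was not called (adjusted p = 0.0674). All 4 lectin pathway members and 5 of the 6 terminal members were lower, Hc being the terminal member not called (-0.18 ± 0.11, adjusted p = 0.156).

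MycVD tumours kept the low levels in part. Against control liver all 20 coagulation and all 15 complement members were lower in MycVD tumours, where 31.1% of all genes tested were lower and 49.2% were higher. The median log2 fold change was -1.04 over the coagulation members and -1.84 over the complement members, against 0.22 over all genes tested. C6 (-4.03 ± 0.51), C4bp (-3.98 ± 0.52), F11 (-3.71 ± 0.27), F5 (-3.48 ± 0.30) and C9 (-3.13 ± 0.31) were the lowest. Fgb (-0.32 ± 0.11), Fga (-0.36 ± 0.08) and C3 (-0.36 ± 0.12) were nearest to control, and with quantile normalisation these 3 and Cpb2 were not called.

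Against Myc tumours, 14 coagulation members and 9 complement members were higher in MycVD tumours, where 6.14% of all genes tested were higher. Masp1 alone was lower (-0.35 ± 0.12, adjusted p = 0.0475), where 9.69% of all genes tested were lower. The median log2 fold change was 0.35 over the coagulation members and 0.62 over the complement members, against -0.05 over all genes tested. The ranges of IDs overlapped for most members, and 2 coagulation members (Proc, Plg) and 5 complement members (Mbl1, Cfb, Cfi, C8a, C9) had none, all being higher in MycVD IDs. Of all genes tested, 0.783% were higher and 1.32% lower without overlap. Most MycVD IDs hold a single tumour, while most Myc IDs are means over several. Taken by single tumour, all of these members but Proc overlapped. Mbl1 and C9 were at 23.1 and 12.5 eRPKM in Myc tumour D of ID125324, against 8.13 and 6.76 in MycVD tumour A of ID133765. With depth as a term 4 coagulation and 7 complement members were higher, and a complement member other than Masp1 was lower. In that fit 4.04% of all genes were higher and 2.55% lower. Without Myc ID130395, 8 coagulation members were higher, where 4.28% of all genes were higher and 6.07% lower.

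C9 led this comparison, at 4.94 to 44.9 eRPKM in MycVD IDs (median 14.0), against 0.893 to 4.79 in Myc IDs (median 1.92). The log2 fold change was 2.28 ± 0.35 (adjusted p = 4.35e-05). Mbl1 ran from 10.4 to 45.2 eRPKM in MycVD IDs, against 1.63 to 9.72 in Myc IDs, and rose by 2.01 ± 0.28 on the log2 scale (adjusted p = 1.3e-05). Mbl2 rose by 1.44 ± 0.31, F5 by 1.20 ± 0.34, C8g by 1.16 ± 0.23 and Plg by 0.97 ± 0.16. F5 was not called without Myc ID130395 (adjusted p = 0.0594) or with depth as a term (adjusted p = 0.0631). Proc, with a smaller rise of 0.75 ± 0.08 (adjusted p = 3.87e-07), ran from 61.8 to 81.5 eRPKM in MycVD IDs, against 34.0 to 45.7 in Myc IDs. Its SD of log2 levels was the smallest of all members among MycVD IDs (0.11), but not among Myc IDs.

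F11, so low in Myc tumours, differed less: it ran from 2.30 to 18.5 eRPKM in MycVD IDs, against 1.58 to 4.89 in Myc IDs. Its log2 fold change was 0.91 ± 0.30 (adjusted p = 0.0378), and it was not called in 4 of the 7 fits that left out a Myc ID. Masp1 was not called when any 1 of 5 of the 7 Myc IDs was left out, with an adjusted p of up to 0.118 (without ID130395). F12 (0.05 ± 0.06, adjusted p = 0.583), Pros1 (0.01 ± 0.25, adjusted p = 0.993), Masp2 (-0.01 ± 0.07, adjusted p = 0.912) and C6 (0.11 ± 0.58, adjusted p = 0.922) were not called. MycVD IDs are all numbered above the Myc IDs, and Myc-off IDs above all others, so date or batch and group cannot be told apart in these comparisons.

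The systems were also set side by side within each ID. For each ID the median over the members of a system was taken relative to the control mean, on the log2 scale. The complement median minus the coagulation median was -0.98, -0.56 and -0.31 in Myc-off ID150584, ID151964 and ID153344. It ran from -1.27 to -0.19 in MycVD IDs (median -0.94), from -1.04 to -0.62 in Myc IDs (median -0.92) and from -0.11 to 0.06 in control IDs. Complement was thus the lower system in all 3 Myc-off, all 10 MycVD and all 7 Myc IDs. The median log2 fold changes were also taken with levels corrected for the assumed limit on reads per kb. For Myc tumours against control liver they were -1.39 over the coagulation and -2.27 over the complement members. For Myc-off against Myc tumours they were 1.07 and 1.49. The order of the systems was the same in both.

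**Figure D4:**
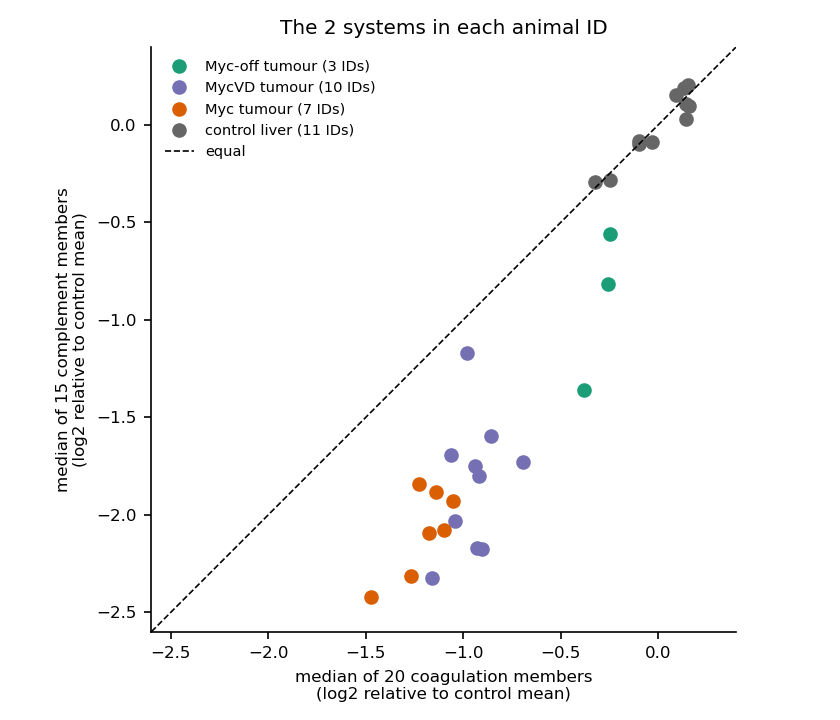
Each point is an animal ID. The horizontal axis gives the median over the 20 coagulation members and the vertical axis that over the 15 complement members, both as log2 relative to the control mean, and the dashed line marks equal values. Control IDs lie on or near the line, and every tumour ID lies below it, from 0.19 to 1.27 log2 units.

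The medians hide a wide spread within each system. In coagulation the 25th and 75th percentiles of the log2 fold changes in Myc tumours against control liver were -2.03 and -0.97. In complement they were -4.24 and -1.48. F5 and F11, with their changes of over 4 log2 units, lay among the most reduced complement genes, and C3 and Masp2 lay at the level of the least reduced coagulation genes.

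Tumours that share an ID differed as much as IDs did for many members. In the 5 Myc IDs with several tumours, the SD of log2 levels among tumours of an ID was 1.04 for C9, 0.99 for F5 and 0.79 for F11, against 0.76, 0.90 and 0.55 among the 7 Myc IDs. In the 3 Myc-off IDs the SD within an ID was 0.23 for C9, 0.08 for F5 and 0.34 for F11, against 0.95, 0.95 and 0.94 among IDs. Within a Myc-off ID the tumours were thus alike in C9, F5 and F11, and the IDs were not. For most of the other members the SD within a Myc-off ID was the larger. It was 0.45 for Fgb, 0.50 for C3 and 0.89 for Mbl2, against 0.04, 0.11 and 0.53 among IDs. SDs among IDs are of means over tumours, so they are not on the same footing as SDs within an ID. The steadiest members among Myc IDs were F12 (SD 0.06) and Masp2 (SD 0.07).

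C6, a terminal component that joins the pore after C5, stood apart from the other members. It ran at 0.901, 1.41 and 4.78 eRPKM in Myc-off IDs, 0.268 to 25.3 in MycVD IDs (median 1.16), 0.512 to 2.99 in Myc IDs (median 1.47) and 7.89 to 107 in control IDs (median 27.1). Its log2 fold change in Myc tumours against control liver was -4.14 ± 0.57 (adjusted p = 9.3e-08). Among control IDs the 6 males ran from 27.1 to 107 eRPKM and the 5 females from 7.89 to 18.1. No other member of the 35 separated control males from control females. Male mice are known to have more terminal complement activity than females. Against control IDs of the same sex, C6 in the 3 male Myc IDs ran from 0.512 to 1.47 eRPKM and in the 4 female Myc IDs from 0.999 to 2.99, below the lowest control of either sex.

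**Figure D5:**
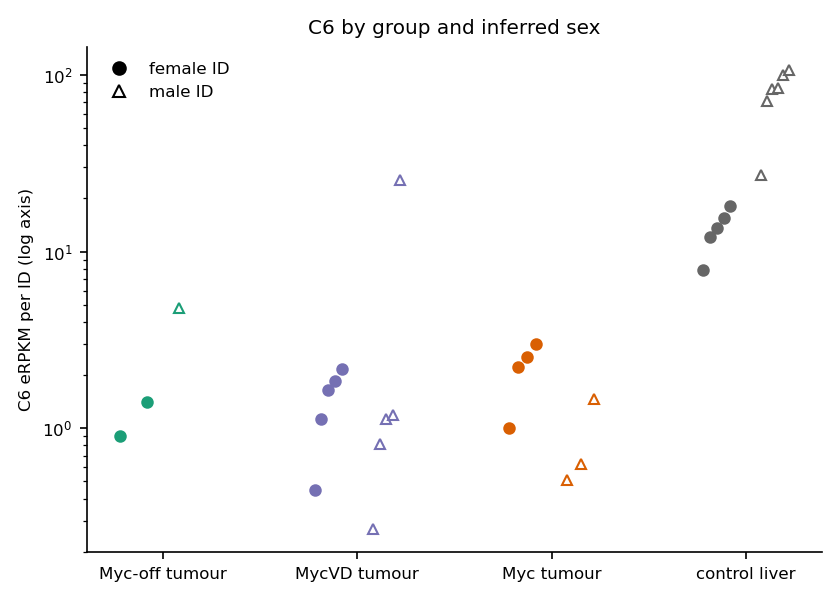
Points give C6 eRPKM per animal ID on a log axis, with groups from left to right Myc-off, MycVD, Myc and control. Filled circles are female and open triangles male IDs. Control males lie above control females. Among the tumours 1 male MycVD ID, at 25.3 eRPKM, lies within the range of all control IDs but below every control male.

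Other genes of the pathways did not all follow the members. Of 26 further coagulation genes 12 were higher and 12 lower in Myc tumours than in control liver, with a median log2 fold change of -0.22. Of all genes tested 50.4% were higher and 29.7% lower, so the share higher was near that of all genes. A2m, a broad protease inhibitor, ran from 51.9 to 81.7 eRPKM in Myc IDs, against 0.0353 to 0.694 in control IDs, and rose by 6.32 ± 0.24 on the log2 scale (adjusted p = 7.36e-21). F2rl1, a protease-activated receptor, rose by 3.90 ± 0.39 and Plau, urokinase, by 2.51 ± 0.23. Hrg, histidine-rich glycoprotein, ran from 0.616 to 12.7 eRPKM in Myc IDs, against 123 to 184 in control IDs, with a log2 fold change of -5.22 ± 0.56. Serpina5, the protein C inhibitor, was at -2.13 ± 0.34 and F3, tissue factor, at -1.86 ± 0.29.

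Of 24 further complement genes tested, from a list of 27, 9 were higher and 15 lower in Myc tumours than in control liver, with a median log2 fold change of -0.82. Here too 50.4% of all genes tested were higher and 29.7% lower. Colec10, a collectin of the lectin pathway, was at -4.76 ± 0.31 and Clu, clusterin, an inhibitor of the terminal complex, at -2.88 ± 0.32. The genes with the largest rises were Fcnb, a ficolin of myeloid cells (1.68 ± 0.45), C3ar1, the receptor for C3a (1.12 ± 0.25), and Cfp, properdin (0.98 ± 0.13). In Myc-off against Myc tumours 13 of these coagulation genes were higher and 1 lower, and 9 complement genes were higher and none lower. In that comparison 22.8% of all genes tested were higher and 28% lower. Clu rose by 2.23 ± 0.45 and C2, the convertase protease, by 2.10 ± 0.16. Hrg rose by 2.73 ± 0.81, F3 by 1.92 ± 0.41 and Plat, tissue plasminogen activator, by 1.34 ± 0.36, and Vkorc1l1 fell by 0.31 on the log2 scale.

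In MycVD against Myc tumours 7 of the 26 coagulation genes were higher and 1 lower, and 7 of the 24 complement genes were higher and 4 lower. In that comparison 6.14% of all genes tested were higher and 9.69% lower. Serpina10, the protein Z-dependent inhibitor, rose by 0.42 ± 0.07 and Habp2, a plasma protease, by 0.41 ± 0.10, and F8, factor VIII, fell by 0.77. Clu rose by 1.58 ± 0.32 and Serping1, the C1 inhibitor, by 0.89 ± 0.16, while the lectin pathway genes Fcna, Colec10 and Colec11 fell by 1.07, 0.90 and 0.76 on the log2 scale. Fcna, Colec10 and Colec11 thus fell, as did Masp1, whose call was lost under many alternatives, while Mbl1 and Mbl2 rose. In MycVD against control liver 12 of the 26 coagulation genes were higher and 13 lower, and 7 of the 24 complement genes were higher and 16 lower. In Myc-off against control liver 12 were higher and 7 lower in coagulation, and 8 were higher and 10 lower in complement. Of all genes tested 49.2% were higher and 31.1% lower in MycVD tumours against control liver. In Myc-off tumours against control liver 37.3% were higher and 20.9% lower, so several of these counts were near the shares of all genes.

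Of 10 liver transcription factors 9 were lower in Myc tumours against control liver and 1 was higher. Among those lower were Cebpa (-1.31 ± 0.09), Foxa3 (-1.20 ± 0.08), Nr1h4 (-1.54 ± 0.09) and Hnf4a (-0.73 ± 0.07). In Myc-off against Myc tumours 7 were higher and 1 was lower. Among those higher were Foxa3 (1.25 ± 0.12), Stat3 (1.04 ± 0.15) and Hnf4a (0.65 ± 0.10). In MycVD against Myc tumours 4 of the 10 were higher (Cebpa, Foxa3, Hnf4a and Stat3), and in Myc-off against control liver 2 were lower (Cebpa and Nr1h4). Of all genes tested 29.7% were lower in the first of these comparisons and 22.8% were higher in the second. In the third 6.14% were higher and in the fourth 20.9% were lower, so the last count was near that share.

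Cell type markers moved too. All 8 hepatocyte markers were lower in Myc tumours than in control liver, with summed levels of 584 to 888 against 829.5 to 1526 eRPKM, and 7 of the 8 were higher in Myc-off than in Myc tumours, with sums of 1161 to 1223 eRPKM in Myc-off IDs. The hepatocyte marker Alb had log2 fold changes of -1.02 ± 0.18 in Myc tumours against control liver and 0.99 ± 0.26 in Myc-off against Myc tumours. In Myc tumours against control liver, 4 of 6 endothelial markers were lower (sums of 50.2 to 75.5 against 129.5 to 252 eRPKM), as were 3 of 6 stellate markers with 2 higher (66.5 to 126 against 138 to 194). All 3 neutrophil markers tested were higher (52.4 to 154 against 7.79 to 21.6 eRPKM), as were 4 of 5 platelet markers (11.9 to 61.4 against 7.57 to 21.4) and 4 of 4 erythroid markers tested (51.0 to 159 against 34.8 to 70.8). Of 6 macrophage markers tested 2 were higher and 2 lower (107 to 130.2 against 109 to 200.4 eRPKM). Of all genes tested 29.7% were lower and 50.4% higher in Myc tumours against control liver, and 22.8% were higher in Myc-off against Myc tumours.

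All 4 cholangiocyte markers were higher in Myc-off than in Myc tumours, at sums of 13.7 to 84.5 against 0.557 to 5.02 eRPKM. In MycVD against Myc tumours 4 of 8 hepatocyte markers were higher, with sums of 730.1 to 1139.7 against 584 to 888 eRPKM, and 2 endothelial and 3 macrophage markers were lower. In that comparison 6.14% of all genes tested were higher and 9.69% lower. None of the marker genes tested was at 0 throughout a group. The part of these cell types in the changes of the members was not tested.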

How the data were processed

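The authors deposited exonic RPKM values (eRPKM). The submitters' processing notes name TopHat, TopHat2 version 2.0.8 and mm9; no source used here gives the counter or annotation. Per the labels' protocols, ribosomal RNA was removed with Ribozero and libraries were made with the TruSeq v2 kit, which does not mark strand. Low values are multiples of the value of 1 read, from which depth was worked out for every library. Length was set for 19418 genes as the smallest whole number that made every value a whole read count within 0.001. That all values of these genes are whole reads follows from this choice and is no check of it. A limit of 2000 reads per kb, taken as collapsed start positions, was assumed, and values above it were set just below it in the correction. Not all variation of abundant genes follows this limit.

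IDs in the titles were assumed to be animals, and eRPKM was averaged per ID (31 IDs). The filter asked for 1 eRPKM or more in 3 or more IDs and removed 7105 genes. Tests used limma 3.58.1 in R 4.3.3, with a mean-variance trend, on log2(eRPKM + 0.5), a scale that understates changes of low genes. All 4 groups entered 1 fit, and two-sided p-values were adjusted by Benjamini-Hochberg at 0.05. The fit was tested on simulated data. Alternatives changed the pseudocount, filter, scaling, averaging, depth, this limit and IDs used.

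Members, lists and tests were chosen with earlier results of these data known. Named genes are all members and, of the further pathway genes, the 3 largest called changes in each direction whose higher group averaged at least 1 eRPKM, with called transcription factors and Alb. A few results that this rule covers are not reported here.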

Additional observations from a re-analysis of the deposited data

Results flagged for a closer look

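In 70 checks of a single ID against its group (35 members in the Myc and the MycVD group), 4 IDs lay farther from the others than Dixon's limit allows, and chance alone gives about 1 in 20 checks. Pros1 was at 9.43 eRPKM in Myc ID130395, where the other 6 Myc IDs ran from 16.0 to 21.0. C3 was at 136 eRPKM in Myc ID125324, where the others ran from 90.6 to 108. C4b was at 47.4 eRPKM in Myc ID126948, where the others ran from 35.6 to 37.9. C6 was at 25.3 eRPKM in MycVD ID134660, a male, where the other 9 MycVD IDs ran from 0.268 to 2.17. ID134660, a single tumour, was also the highest MycVD ID for F9, F5, Mbl1, Mbl2, Masp1, C4bp, C8a, C8g and C9. It thus set the upper ends given for C9 and Mbl1 in MycVD IDs. For F2, Fgb, Fgg, Serpinc1 and C3 it was the lowest MycVD ID. The cause of these values was not tested.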

How the results depend on the processing

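No called member changed direction under any alternative, and 1 that was not called, Kng1 in Myc-off against control liver (-0.01), was called higher with quantile normalisation (0.22, adjusted p = 0.0161). For Myc tumours against control liver, all 875 values of single members under the alternatives stayed called. For Myc-off against Myc tumours 5 of 825 lost the call, for MycVD against control liver 5 of 875, for Myc-off against control liver 13 of 475 and for MycVD against Myc tumours 59 of 600. IDs were left out in turn only from the Myc and Myc-off groups, never from MycVD or control. A fit without an ID of neither compared group could hardly change a call. For MycVD against control liver this held for all fits that left out an ID. In MycVD against Myc tumours the 14 coagulation members called higher became 4 with depth as a term. They became 8 to 15 when a Myc or Myc-off ID was left out (8 without Myc ID130395). The 1 complement member called lower, Masp1, became 0 with no filter, median-ratio scaling or quantile normalisation. It also became 0 with every tumour as its own sample, log2 values averaged or the correction for the limit on reads per kb. The count was 0 to 1 when a Myc or Myc-off ID was left out. With depth as a term Masp1 was not called (-0.30, adjusted p = 0.233), and a different complement member was lower. In Myc-off against control liver the 0 coagulation members higher became 2 with quantile normalisation. The 8 lower became 13 with median-ratio scaling and 4 with quantile normalisation. The 11 complement members lower became 7 to 12 when a Myc or Myc-off ID was left out (7 without Myc-off ID150584). The alternatives on the 8 libraries with low Gapdh were chosen after seeing the data. Without these libraries MycVD against Myc tumours had 15 coagulation and 10 complement members higher, where 10.9% of all genes were higher. Median-ratio scaling moved the median of all genes in Myc tumours against control liver to 0.05, and the cause of the differences between settings was not tested. IDs share no number across groups, so no paired analysis was possible.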
